A study of Arabidopsis thaliana with 60 samples.

Results

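The comparison described here asks which genes carry histone H3 lysine 27 trimethylation (H3K27me3) in clf-28 seedlings and no longer do so once ULT1 is removed as well, in ult1-3 clf-28 seedlings. It rests on 4 chromatin immunoprecipitation (ChIP) libraries of the 60 libraries of the series, 2 per genotype, which the authors deposited as 1 peak list per genotype, so 2 lists were compared. The members were chosen by genotype and mark from the sample titles, which write K27. The paired-end libraries carry no antibody label, and the sources used here do not say how the 2 libraries of a genotype were combined.

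All plants were 8-day-old Arabidopsis thaliana seedlings grown in long days. clf-28 is a loss-of-function allele of CURLY LEAF (CLF), and both groups lacked CLF while SWINGER (SWN) was left intact in both. ult1-3 is a loss-of-function allele of ULTRAPETALA1 (ULT1), given by the series text in the Col-0 background for these combinations. The paired-end lists of Col-0, ult1-3, swn-7 and ult1-3 swn-7, and the single-end lists of the series, are used here only as reference values.

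H3K27me3 is placed on nucleosomes of silent developmental genes by Polycomb repressive complex PRC2. In Arabidopsis vegetative tissue the catalytic subunit of PRC2 is either CLF or SWN, which overlap in function, so the mark that is left in clf-28 depends largely on SWN. ULT1 is a plant SAND-domain protein first described as a trithorax-group factor, a class that opposes Polycomb silencing at genes such as the floral regulator AGAMOUS.

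A gene is called marked where peaks covered at least 50% of its body, lost where it was marked in clf-28 and under 50% in ult1-3 clf-28, and gained in the reverse case. Cover was computed for 27444 protein-coding genes of the 5 nuclear chromosomes. With 1 list per genotype there was no replicate check, no spread and no test, so every figure is a value for these lists. The lists hold no read counts, so sequencing depth is unknown. In whole seedlings, fewer cells with the mark and less mark per cell cannot be told apart. Peak lists measure no transcripts, so tissue and genotype could not be checked by marker genes. As a check on the mark, 0 of 16 housekeeping genes were marked in any of the 6 paired-end lists.

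Removal of ULT1 in the absence of CLF left a list with fewer peaks and less covered sequence. The clf-28 list held 5987 peaks over 13.6 Mb, and the ult1-3 clf-28 list held 3703 peaks over 9.55 Mb, which is 70.4% of the clf-28 length. The Col-0 list held 5357 peaks over 18.9 Mb and the ult1-3 list 5133 peaks over 18.2 Mb, so the ult1-3 list stood close to Col-0 in both quantities. The swn-7 and ult1-3 swn-7 lists held 20.7 Mb and 21.1 Mb. The ult1-3 clf-28 list was thus the shortest of the 6 paired-end lists in number of peaks and in covered length.

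Of the sequence under clf-28 peaks, 54.7% was also under ult1-3 clf-28 peaks. Both lists covered 7.41 Mb together, of which 93.0% lay under Col-0 peaks. The clf-28 list alone covered 6.14 Mb, of which 58.0% lay under Col-0 peaks, and the ult1-3 clf-28 list alone covered 2.14 Mb, of which 37.7% did. The sequence shared by clf-28 and ult1-3 clf-28 was therefore mostly sequence already marked in wild type. As a fraction of the sequence covered by either list, the overlap was 0.472 for this pair, 0.733 for Col-0 and ult1-3, and 0.823 for swn-7 and ult1-3 swn-7.

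Among the 5987 clf-28 peaks, 2729 (45.6%) touched no ult1-3 clf-28 peak. Their widths were smaller, with a median of 1400 bp where that of clf-28 peaks with a counterpart was 2400 bp. Of the 4747 clf-28 peaks that touched a Col-0 peak 35.7% had no counterpart, and of the 1240 that touched none 83.5% had no counterpart. In the other direction, 479 of the 3703 ult1-3 clf-28 peaks touched no clf-28 peak, and 421 of these touched no Col-0 peak either. Median peak width was 1800 bp in clf-28, 2200 bp in ult1-3 clf-28 and 2600 bp in Col-0 and in ult1-3, so peaks were narrower in both lists without CLF.

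**Figure D1:**
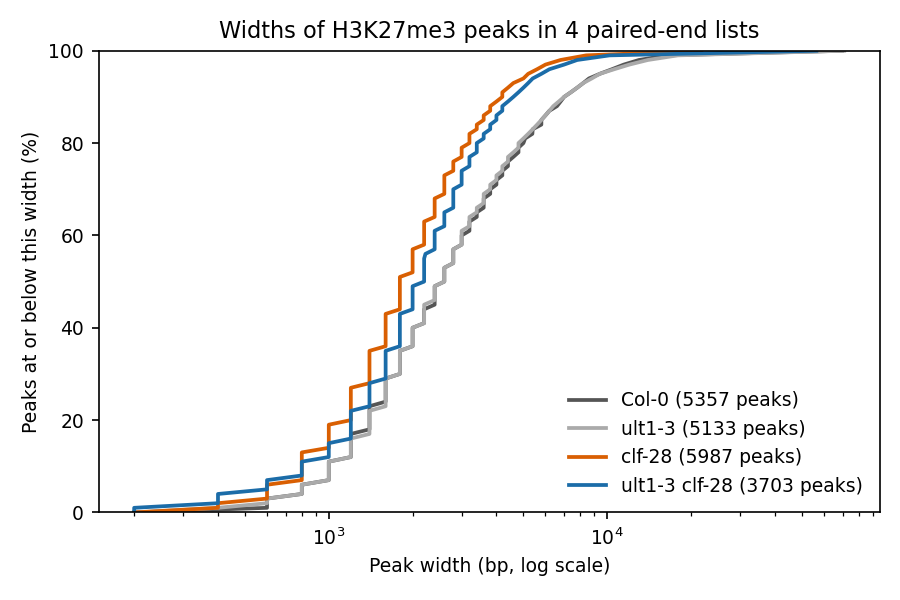
Cumulative share of peaks (vertical axis, percent) by peak width (horizontal axis, bp on a log scale) in the paired-end Col-0, ult1-3, clf-28 and ult1-3 clf-28 lists, 1 list per genotype. At the median the order from the left is clf-28 at 1800 bp and ult1-3 clf-28 at 2200 bp, the narrowest peaks of ult1-3 clf-28 lie to the left of those of clf-28, and the curves of Col-0 and ult1-3 lie together at 2600 bp.

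At the level of genes, 5121 were marked in clf-28 and 3057 in ult1-3 clf-28, against 5681 in Col-0 and 5547 in ult1-3. Between clf-28 and ult1-3 clf-28, 2308 genes lost the mark, 8.41% of all genes and 45.1% of those marked in clf-28, and 244 genes (0.889%) gained it. Of the 2308 lost genes, 1928 had no cover at all in ult1-3 clf-28. The lost genes lay under 2090 different clf-28 peaks, so the count does not come from a few long domains that each hold many genes. By chromosome, the lost share of clf-28-marked genes ran from 40.8% on chromosome 3 to 47.8% on chromosome 2.

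The counts depend on the length of the lists. When only the 3703 clf-28 peaks with the highest value in column 4 of the list were kept, which gives both lists equal peak numbers, 3928 genes were marked in clf-28, 1333 of them (33.9%) were lost and 462 were gained. With peaks ranked by column 4 per kb, 853 genes were lost and 571 gained, and with equal covered length 929 were lost and 680 gained. Losses outnumbered gains under each of these 3 settings, but the excess of losses over gains was far smaller than in the lists as deposited.

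The same removal of ULT1 in plants with CLF gave these counts in the lists as deposited. From Col-0 to ult1-3, 783 genes lost the mark (2.85% of all genes, 13.8% of those marked in Col-0) and 649 gained it (2.36%). From swn-7 to ult1-3 swn-7, 543 lost it (1.98%, or 9.26% of those marked in swn-7) and 294 gained it (1.07%). The ratio of lost to gained genes from clf-28 to ult1-3 clf-28 was above that of either pair in the lists as deposited. With equal peak numbers in clf-28 and ult1-3 clf-28 it was still above both. With equal covered length and with ranking per kb it lay between them. The values of the other pairs are those of the lists as deposited throughout, so like was not set against like. Whether the 3 pairs differ in the effect of ult1-3 was not tested, since each pair has 1 list on either side.

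Of the 5121 genes marked in clf-28, 4019 were also marked in Col-0 and 1102 were newly marked, which is 4.02% of all genes. The newly marked genes were those most often lost: 979 of the 1102 (88.8%, or 3.57% of all genes) were unmarked again in ult1-3 clf-28, and 849 of them had no cover there. Of the 4019 genes marked in both Col-0 and clf-28, 1329 (33.1%) were lost and 2690 kept. For the 843 newly marked genes with no cover at all in Col-0, 766 (90.9%) were lost. The 979 genes lay under 897 clf-28 peaks. Both classes are defined with the same clf-28 list, so a peak found in that list alone counts as newly marked and as lost again.

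**Figure D2:**
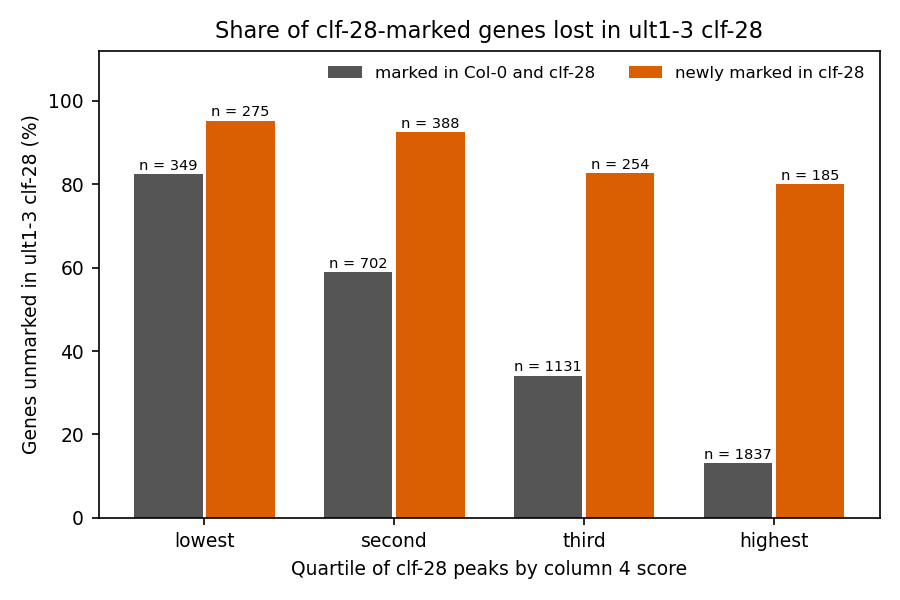
Share of clf-28-marked genes that were unmarked in ult1-3 clf-28 (vertical axis, percent) by quartile of the clf-28 peaks ranked by column 4 (horizontal axis), for genes marked in Col-0 and clf-28 (grey) and genes newly marked in clf-28 (orange), with the number of genes above each bar. The grey bars go from 82.5% down to 13.2% and the orange bars from 95.3% down to 80%.

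The 2 classes also differed in how their clf-28 peaks ranked by column 4. In the lowest quartile (4 equal groups) of clf-28 peaks by column 4, 82.5% of 349 genes shared with Col-0 were lost and 95.3% of 275 newly marked genes. In the second quartile the shares were 58.8% of 702 and 92.5% of 388, and in the third 34.1% of 1131 and 82.7% of 254. In the highest quartile, 13.2% of 1837 genes shared with Col-0 were lost and 80% of 185 newly marked genes. Loss of genes shared with Col-0 thus tracked the rank of the peak closely, while loss of newly marked genes was at least 80% in each quartile. Column 4 rose with peak width, with a median width of 800 bp in the lowest quartile and 3800 bp in the highest. Among genes covered over their whole length in clf-28, 17.5% of 1720 shared with Col-0 and 83.5% of 182 newly marked genes were lost.

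With equal peak numbers in the Col-0, clf-28 and ult1-3 clf-28 lists, 635 of 886 newly marked genes (71.7%) were lost, against 22.9% of 3042 shared with Col-0. With equal covered length in the 3 lists the shares were 37.5% of 1797 and 17% of 1509, and with ranking per kb 69.2% of 574 and 16.5% of 2765. The order of the classes was the same in each case, and the distance between them was smallest with equal covered length. The classes are not the same genes in each case, since the Col-0 list was shortened as well. With equal covered length 1797 genes counted as newly marked, against 1102 in the lists as deposited. Part of the 1797 were therefore marked in the Col-0 list as deposited.

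Lists that the choice did not use gave further values for the newly marked genes. The single-end series holds K4 trimethylation, a mark of transcribed genes, and 67.6% of the newly marked genes carried it in both single-end Col-0 lists, against 19% of genes marked in Col-0 and clf-28 and 62.0% of all genes. Of the 1102 newly marked genes, 293 (26.6%) were marked by H3K27me3 in both single-end Col-0 lists, and 562 (51.0%) had no cover in either. Over all genes these shares were 23.0% and 69.1%, so the first was near that of all genes. The lost share was 85.0% for the 293 newly marked genes and 90.9% for the 562. Of the 979 genes newly marked and lost again, 374 (38.2%) had no cover in any of the 12 single-end H3K27me3 lists, beside 39 (31.7%) of the 123 genes newly marked and kept, 31 (2.33%) of the 1329 genes lost from the set shared with Col-0, and 54.3% of all genes. In the paired-end series, 15.4% of the newly marked genes were marked in ult1-3, 16.9% in swn-7 and 11.3% in ult1-3 swn-7. Over all genes, those marked in Col-0 included, these shares were higher, at 20.2%, 21.4% and 20.4%. For genes unmarked in Col-0, clf-28 and ult1-3 clf-28 they were lower, from 2.16% to 2.23%.

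The same shares were taken for swn-7. Of 644 genes newly marked in swn-7 against Col-0, 269 (41.8%) were unmarked again in ult1-3 swn-7, against 5.25% of the 5217 genes marked in Col-0 and swn-7. New marks were thus lost more often than shared marks in that pair too, at a lower level.

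**Figure D3:**
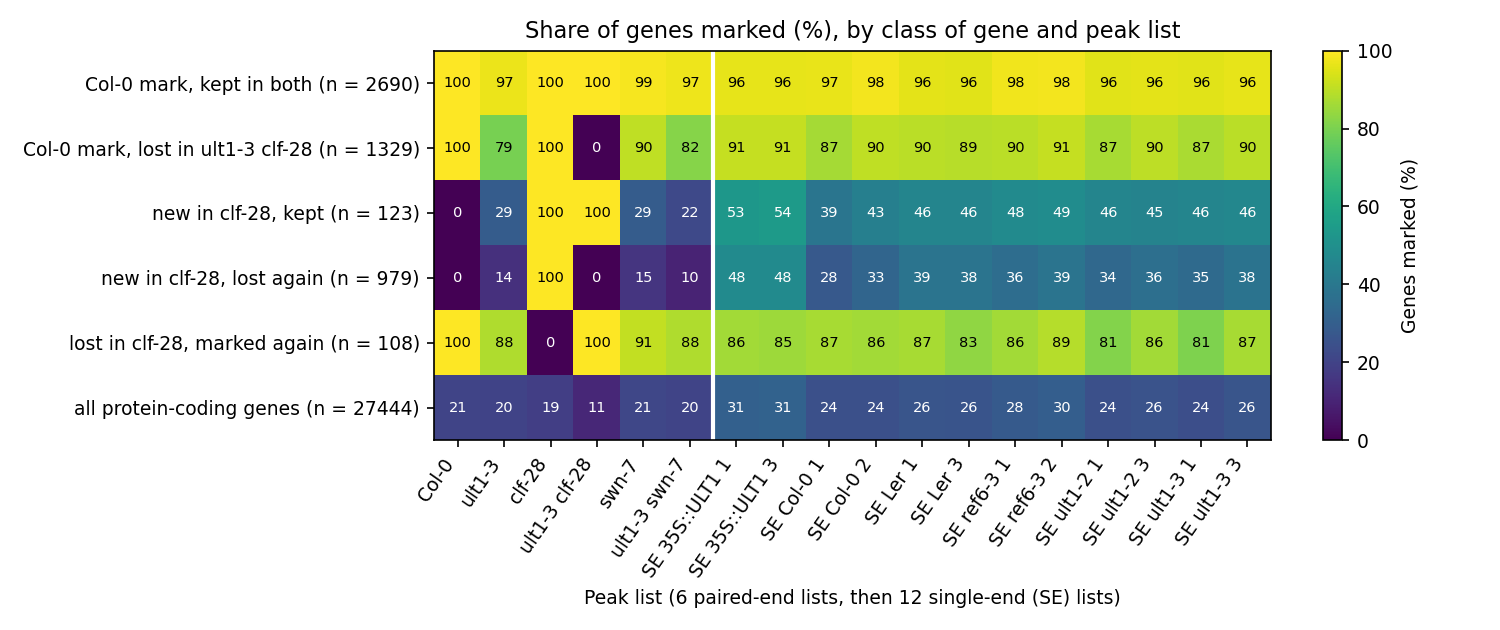
Percent of genes marked (colour and number) for 5 classes of genes and all protein-coding genes (rows, with the number of genes) in the 6 paired-end and 12 single-end H3K27me3 lists (columns; SE marks single-end). Genes newly marked in clf-28 and lost again were marked at 13.7% in paired-end ult1-3 and at 27.8% to 47.9% in the single-end lists, while those lost from the set shared with Col-0 were marked at 79.5% or more in each list other than ult1-3 clf-28.

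The 1329 genes lost from the set shared with Col-0 are marked in Col-0 and clf-28 by definition. They were mostly marked in the other 3 paired-end lists too, though less often than the 2690 kept genes. Of the 1329, 79.5% were marked in ult1-3, 90.3% in swn-7 and 81.9% in ult1-3 swn-7. For the kept genes the shares were 97.2%, 98.6% and 97.4%. Of the 348 genes marked in Col-0 and clf-28 that were unmarked in ult1-3, 273 (78.4%) were also lost in ult1-3 clf-28, against 28.8% of the 3671 that were still marked in ult1-3. The 348 genes and the 3671 were not matched for the rank or width of their peaks.

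Some genes marked in Col-0 fell under the cover limit in clf-28 and reached it in the double mutant. Of 1662 genes marked in Col-0 and unmarked in clf-28, 108 (6.5%) were marked in ult1-3 clf-28. Median cover of the 108 was 35.6% in clf-28 and 74.6% in ult1-3 clf-28, so many of them kept partial cover in clf-28. A further 136 genes were marked in ult1-3 clf-28 and in neither Col-0 nor clf-28. They were 0.658% of the 20661 genes unmarked in both Col-0 and clf-28. Those 2 groups make up the 244 gained genes.

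Of the genes marked in clf-28, 0 of 19 floral identity genes, 3 of 19 meristem and boundary genes and 3 of 19 seed and embryo genes were lost, and 5 of 11 auxin genes. Over all gene lists, 108 of 211 listed genes were marked in clf-28 and 95 in ult1-3 clf-28, with 19 lost (17.6% of those marked in clf-28, against 45.1% of all genes). Of these 108 genes, 75 lay under clf-28 peaks of the highest quartile, where 19.3% of all marked genes were lost. With equal peak numbers 13 of 100 listed genes (13.0%) were lost, against 33.9% of all. The median change in cover among members marked in clf-28 was 0, against -19.5 percentage points over all genes marked in clf-28.

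The floral identity genes, which specify the organs of the flower, held 24 members, 19 of them marked in clf-28 and 20 in ult1-3 clf-28, with 0 lost. AGAMOUS (AG), which specifies stamens and carpels, had 100% cover in Col-0 and 100% in ult1-3, then 94.0% in clf-28 and 100% in ult1-3 clf-28. The MADS-box genes AP1, SEP2 and SEP3, which act in flower organ identity, were at 100% in all 4 lists. KNU, a zinc-finger repressor that ends stem cell activity in the flower, had no cover in Col-0 or ult1-3 and 100% in both clf-28 and ult1-3 clf-28, so against the paired-end Col-0 list it was newly marked and stayed marked. It was also at 100% in swn-7 and in each of the 12 single-end lists, both of Col-0 included. SHP2, an AG relative that acts in ovules and fruit, was at 48.4% in clf-28 and 53.5% in ult1-3 clf-28, on either side of the limit by a small margin.

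Among the 24 meristem and boundary genes, 19 were marked in clf-28 and 17 in ult1-3 clf-28. STM and WUS, homeobox genes that keep stem cells in the shoot meristem, were at 99.5% and 99.4% in clf-28 and at 100% in ult1-3 clf-28, and CLV3, the peptide that limits those cells, was at 100% in both. The 3 lost members act in boundaries between organs. CUC3, a NAC factor, had 37.7% cover in Col-0 and in ult1-3, 91.3% in clf-28 and none in ult1-3 clf-28. CUC1, its relative, had none in Col-0 or ult1-3, 54.7% in clf-28 and none in ult1-3 clf-28, and its clf-28 mark was absent with equal peak numbers. BOP2, a BTB-ankyrin protein of leaf bases, went from 100% to 44.2%, while its close relative BOP1 was at 100% and 98.6%. CUC1 and CUC3 were newly marked and lost again against the paired-end Col-0 list, but both were marked in the 2 single-end Col-0 lists, at 65.7% and 54.7% for CUC1 and at 73.4% and 91.3% for CUC3. CUC3 was also at 64.5% in swn-7 and in ult1-3 swn-7. BRC2, a TCP factor that holds back side branches, was at 47.2% in clf-28 and 83.3% in ult1-3 clf-28.

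**Figure D4:**
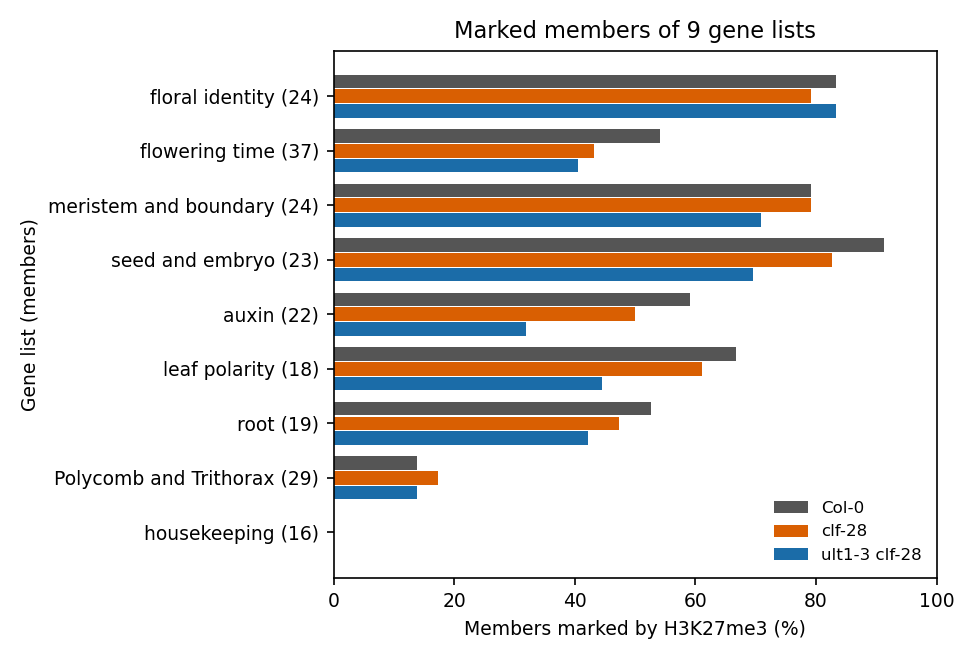
Percent of the members of 9 gene lists (vertical axis, number of members in brackets) marked in Col-0, clf-28 and ult1-3 clf-28 (horizontal axis, percent). The blue bar of ult1-3 clf-28 is shorter than the orange bar of clf-28 for 7 of the lists, longer for floral identity, and no housekeeping gene was marked.

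Of 37 flowering time genes, 16 were marked in clf-28 and 15 in ult1-3 clf-28. With a cover limit of 20% the counts were 23 and 16. From clf-28 to ult1-3 clf-28, cover fell in 17 of the 37 and rose in 5. Of the 16 genes marked in clf-28, 4 were lost. MAF4, a MADS-box repressor of flowering related to FLC, was at 84.8% in Col-0 and 64.8% in ult1-3, then 59.9% in clf-28 and 0 in ult1-3 clf-28. AGL15, a MADS-box gene active in embryos that also delays flowering, was at 92.5%, 85.8%, 92.5% and 0 in the same order. AGL15 was also at 0 in ult1-3 swn-7, against 100% in swn-7. SPL4, which promotes flowering with age, was at 100% in Col-0 and ult1-3, 90.4% in clf-28 and 0 in ult1-3 clf-28. VIN3, which acts in the memory of winter, was at 77.2% in clf-28 and 45.0% in ult1-3 clf-28, the same value as in ult1-3. SPL4 was unmarked in clf-28 when peak numbers were equal.

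The 3 gained flowering genes were all marked in Col-0. FT, the mobile flowering signal, had 77.2% cover in Col-0, 45.6% in clf-28 and 68.5% in ult1-3 clf-28. AGL17, a promoter of flowering, was at 100%, 45.3% and 90.8%, and AGL42, a relative of the flowering integrator SOC1, at 100%, 44.3% and 100%. SOC1 itself was at 93.9% in clf-28 and 88.4% in ult1-3 clf-28. TEM2, a repressor of FT, had no cover in Col-0 or ult1-3, 67.7% in clf-28 and 89.3% in ult1-3 clf-28, and no clf-28 cover with equal peak numbers.

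Of 11 auxin genes marked in clf-28, 5 were lost (45.5%) in the lists as deposited. Of these, 4 act in auxin synthesis. YUC8, a flavin monooxygenase of the last step, was at 98.2% in Col-0 and 0 in ult1-3. It was at 100% in clf-28 and 0 in ult1-3 clf-28. YUC8 was thus unmarked in both of these lists without ULT1, though it was at 100% in ult1-3 swn-7. It was also marked in the single-end lists without ULT1, at 92.3% and 98.2% in ult1-3 and at 98.2% in both of ult1-2. YUC5 was at 66.7% in clf-28 and YUC9 at 68.6%, and neither had any cover in ult1-3 clf-28. YUC9 counts as newly marked, but it was at 45.7% in paired-end Col-0 and at 63.4% and 86.2% in the single-end Col-0 lists. YUC9 was also at 0 in ult1-3, and at 63.4% in swn-7 and 0 in ult1-3 swn-7. In the single-end ult1-2 and ult1-3 lists it was at 86.2%. YUC5 was at 87.5% in ult1-3 and in swn-7, and at 31.9% in ult1-3 swn-7. TAA1, the aminotransferase that feeds the YUC enzymes, was at 100% in Col-0, 55.3% in clf-28 and 0 in ult1-3 clf-28. With equal peak numbers, YUC5, YUC9 and TAA1 were unmarked in clf-28 and 2 of 8 (25%) were lost, against 33.9% of all genes. PIN2, an auxin exporter of the root, was at 94.0% and 43.0%. PIN6, another PIN, was at 36.3% in clf-28 and 70.6% in ult1-3 clf-28, and at 70.6% in Col-0 and 36.3% in ult1-3.

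The seed and embryo list had 19 of 23 members marked in clf-28 and 16 in ult1-3 clf-28. The embryo regulators FUS3, ABI3 and ABI4 and the albumin genes SESA1 to SESA4 had 100% cover in both lists. CRU2, a cruciferin seed storage protein, was at 97.9% in Col-0, ult1-3 and clf-28 and at 0 in ult1-3 clf-28, while CRU1 was at 93.5% and CRU3 at 100% there. WOX8, a homeobox gene of the early embryo, was at 59.0% in clf-28 and 26.4% in ult1-3 clf-28, but with equal peak numbers it was at 22.3% in clf-28, below the double mutant. AGL15 was the third lost member of this list.

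In the leaf polarity list, 11 of 18 members were marked in clf-28 and 8 in ult1-3 clf-28. KAN4, a GARP factor of the ovule integument, was at 95.3% in Col-0, ult1-3 and clf-28 and at 0 in ult1-3 clf-28. KAN3, a relative in leaves, was at 100% in Col-0, 69.0% in clf-28 and 0 in ult1-3 clf-28, whereas KAN1 was at 92.5% and KAN2 at 89.7% there. HB-8, a class III homeodomain gene of the vasculature, was at 64.9% and 22.6%. The YABBY genes YAB1, YAB2, YAB3 and YAB5, which mark the lower leaf side, stayed marked, and the lowest cover of the 4 in ult1-3 clf-28 was 90.3%, at YAB5.

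In the root list, 9 of 19 members were marked in clf-28 and 8 in ult1-3 clf-28. FEZ, a NAC factor of root cap stem cells, was at 94.4% in clf-28 and 39.6% in ult1-3 clf-28 and was the lost member. PLT1 and PLT2, which maintain the root meristem, went from 100% to 72.5% and from 87.9% to 76.2%, and so stayed marked.

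**Figure D5:**
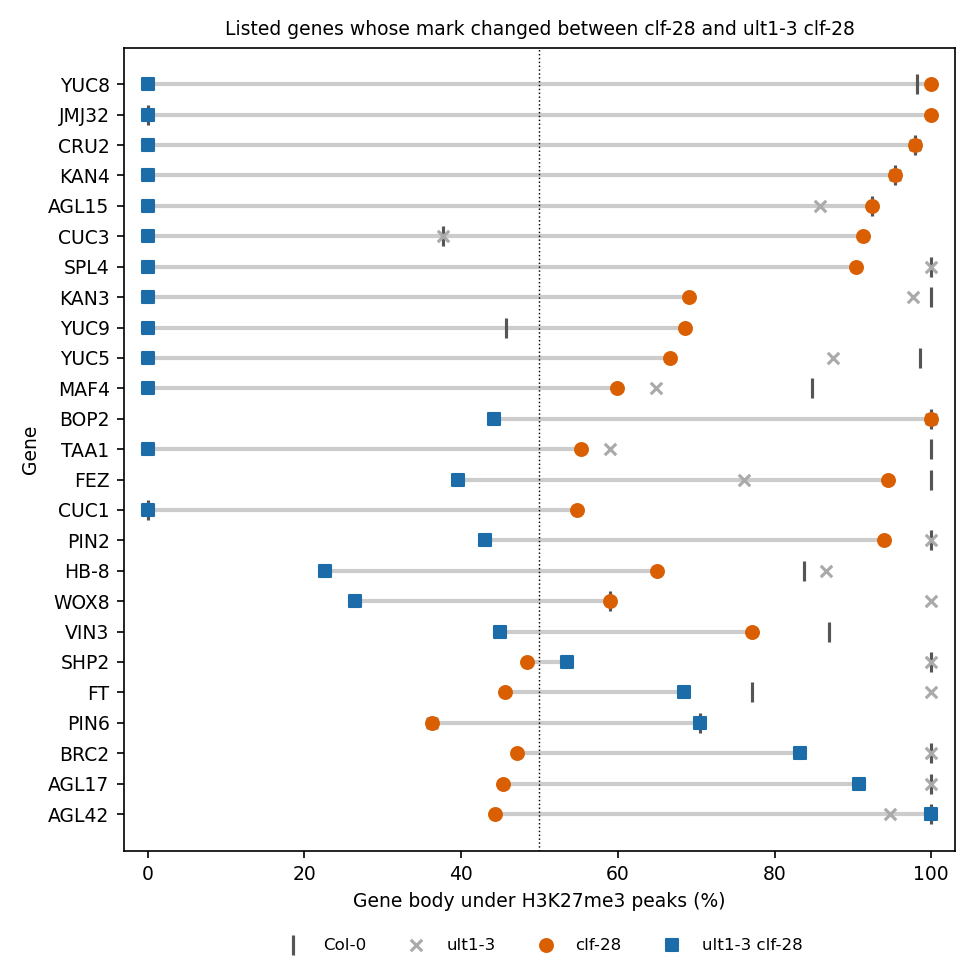
Percent of the gene body under H3K27me3 peaks (horizontal axis) of the 25 listed genes whose marked state differs between clf-28 (orange circles) and ult1-3 clf-28 (blue squares), with Col-0 and ult1-3 as reference symbols and the 50% limit as a dotted line, 1 list per genotype. For 13 genes the blue square lies at 0, and for the 6 gained genes it lies to the right of the circle.

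Among 29 Polycomb and Trithorax genes, 5 were marked in clf-28 and 4 in ult1-3 clf-28. JMJ32, a JmjC demethylase of H3K27me3, was the lost member, with 100% cover in clf-28 and none in the other 5 paired-end lists or in any single-end list. CLF and SWN had no cover in any list. ULT1 had 74.9% cover in Col-0 and 0 in ult1-3, then 71.0% in clf-28 and 71.0% in ult1-3 clf-28. ULT2, its paralog, had 85.5%, 0, 85.5% and 61.8% in the same order. ULT1 and ULT2 were thus unmarked in ult1-3 and marked in ult1-3 clf-28, although both lists are of the same ult1 allele. In ult1-3 swn-7, of that allele too, both were unmarked, ULT1 at 35.5% (56.8% in swn-7) and ULT2 at 47.4% (85.6% in swn-7). In the single-end ult1-3 lists, ULT2 was at 82.9% in both and ULT1 at 42.6% and 49.7%. In the single-end ult1-2 lists, ULT1 was at 0 in both and ULT2 at 71.1% and 82.9%.

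Of the 19 lost members of the lists, 13 were still marked in clf-28 when peak numbers were equal and 10 when covered length was equal. Of the 19, 13 were marked in ult1-3 and 14 in ult1-3 swn-7. All 6 gained members were marked in Col-0.

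The lost genes under the highest-ranked clf-28 peaks, restricted to genes with a symbol, marked in Col-0 and clf-28 and with no cover in ult1-3 clf-28, were GRP18, UGT71B6, ABCA11, CLV2, NRPB10, CYP97B3, CRK23, EBF2, CRU2 and HB18. GRP18, a glycine-rich protein, ABCA11, an ABC transporter, and HB18, a homeodomain-leucine zipper protein, were at 90.4% to 100% in Col-0, ult1-3, clf-28, swn-7 and ult1-3 swn-7 and at 0 in ult1-3 clf-28 alone of the 6. CLV2, a receptor-like protein that limits shoot stem cells, was at 100% in Col-0 and 76.8% in ult1-3, then 100% in clf-28, 0 in ult1-3 clf-28, 76.8% in swn-7 and 12.7% in ult1-3 swn-7. EBF2, an F-box protein of ethylene signalling, was at 50.0% in Col-0 and 17.7% in ult1-3, then 88.7% in clf-28 and 0 in ult1-3 clf-28. CLV2, EBF2, NRPB10, a subunit of RNA polymerase II, and CYP97B3, a cytochrome P450, had no cover in any of the 12 single-end lists, so 4 of these 10 genes were marked in the paired-end series alone.

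The newly marked and lost genes under the highest-ranked clf-28 peaks, with no cover in Col-0 or ult1-3 clf-28, were RUS1, CRR2, PDE327, SYP61, TMKL1, ERH3, HXK1, PDX1.1, HSP17.4 and EXT-like. RUS1, named for root sensitivity to UV-B, had 79.7% cover in clf-28 and none in the other 5 paired-end lists. It shares with JMJ32 a clf-28 peak at chr3:16863201-16873800 (TAIR10, as in the file), where ult1-3 clf-28 had no peak over either gene. CRR2, an RNA-binding protein of chloroplasts, was at 94.9%, and HXK1, a hexokinase that also senses glucose, at 55.7%, both in clf-28 alone. SYP61, a syntaxin of membrane traffic, was at 84.3% in clf-28 and 11.3% in swn-7, and ERH3, the katanin subunit that cuts microtubules, at 77.4% and 36.8%. TMKL1, a receptor-like kinase, was at 100% in clf-28 and at 66.3% in ult1-3. Of the 10, 9 carried K4 trimethylation in both single-end Col-0 lists and 6 had no H3K27me3 cover in any single-end list.

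The gained genes under the highest-ranked ult1-3 clf-28 peaks were GER2, LpxC2, THA2, ATG8G and CYP71A16. CYP71A16, a cytochrome P450 of the marneral pathway, was at 100% in Col-0 and ult1-3, 21.6% in clf-28 and 100% in ult1-3 clf-28, and THA2, a threonine aldolase, was at 100%, 100%, 38.4% and 100%. GER2, a germin-like protein, was at 0 in Col-0 and 100% in ult1-3, then 0 in clf-28 and 100% in ult1-3 clf-28, and at 100% in 11 of the 12 single-end lists. GER2 and LpxC2 belong to families of near-identical copies, so reads may be placed on the wrong copy and their values are uncertain. ATG8G, an autophagy protein, was at 19.4% in clf-28 and 52.7% in ult1-3 clf-28.

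Gene families, grouped by the start of their symbol, lost marked members to different extents, beside 45.1% over all genes in the lists as deposited. WRKY factors, regulators of defence, had 33 marked members in clf-28 and 28 in ult1-3 clf-28, and MYB factors 59 and 44. Of the members marked in clf-28, 18.2% of WRKY factors and 25.4% of MYB factors were lost. NAC factors, which include the CUC genes, had 33 and 23, with 11 lost (33.3%) and 1 gained. Cytochrome P450 genes had 97 and 69, with 33 lost and 5 gained. XTH enzymes, which remodel the cell wall, had 13 and 7, gibberellin oxidases 9 and 5, and receptor-like proteins 9 and 4. Their lost shares were 46.2%, 44.4% and 55.6% in the same order. Pseudogenes had 343 and 252, with 174 lost (50.7%) and 83 gained, and microRNA genes 67 and 52, with 21 lost (31.3%) and 6 gained. With equal peak numbers, the lost share over all genes was 33.9%. That of WRKY factors went from 18.2% to 3.85% (1 of 26) and that of XTH enzymes from 46.2% to 50% (5 of 10). It was 21.6% for MYB factors, 24.1% for NAC factors, 27.3% for cytochrome P450 genes and 28.6% for gibberellin oxidases. For receptor-like proteins it was 55.6%, for pseudogenes 43.97% and for microRNA genes 25%. In the lists as deposited, in none of the 17 groups were more members marked in ult1-3 clf-28 than in clf-28.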

How the data were processed

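H3K27me3 ChIP-seq was described from peak lists deposited by the authors: chromosome, start, end and column 4, a score for which no source gives a unit, so it served for ranking inside each list alone. Per the submitters' processing notes, BWA (0.6.2-r126 and 0.7.17-r1188), SAMtools (0.1.19 and 1.16.1), Picard (1.93 and 2.26.10), bedtools (2.17.0-97 and 2.30.0) and SICER 1.1 were named, with TAIR10; no source used here gives their settings. Depth, and so precision, is unknown. Per the labels' protocols, chromatin of the single-end and paired-end libraries was prepared differently.

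Percent of gene body under peaks was computed with Python 3.11.15, NumPy 2.4.6 and pandas 2.3.3 for 27444 protein-coding genes of the RefSeq table (assembly TAIR10.1); no coordinate of that table is printed. A marked gene has at least 50% cover. K4 means at least 500 bp or 50% of the gene under a K4 peak. Peak edges lie on a grid of 200 bp, and the smallest gap between peaks was 600 bp. The code for the calls was run on simulated peaks that each spanned a whole isolated gene, without noise. That checks the code alone and not the accuracy of calls in the deposited lists. No sample was left out of the 2 genotypes compared, and inputs were not used.

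Named genes were every listed gene that crossed the limit, the 10 highest-ranked genes each of the shared and the newly marked sets with no cover in ult1-3 clf-28, the 5 highest-ranked gained genes, and ULT1, ULT2, CLF and SWN; others were chosen after their values were seen. The members and the gene lists were chosen with earlier results of these data known. Of 217 list entries, 5 (BMI1C, JMJ13, TIP41L, SAND and EXP1A) matched no gene. The alternatives were other cover limits, equal peak numbers, the lowest 25% of peaks left out, peaks under 1000 bp left out, and all 37899 annotated genes.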

Additional observations from a re-analysis of the deposited data

Results flagged for a closer look

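Among the genes that the naming rule picked (not every listed gene, and with no minimum size of change), 7 had cover that moved in opposite directions with and without CLF when ULT1 was removed. Each value below is the change from clf-28 to ult1-3 clf-28 minus the change from Col-0 to ult1-3, in percentage points of the gene body. The difference was not tested, since each genotype has 1 list.

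The flowering gene AGL42 stood at 60.9 (55.7 without CLF and -5.22 with CLF), and the auxin transporter gene PIN6 at 68.4 (34.2 and -34.2). PIN6 thus showed the same pair of levels in reverse order. The embryo gene WOX8 stood at -73.6 (-32.6 without CLF and 41.0 with CLF), and HB-8 of the vasculature at -45.2 (-42.4 and 2.82). With equal peak numbers WOX8 was at 22.3% in clf-28 and 26.4% in ult1-3 clf-28, so its opposite directions ended. With equal covered length HB-8 was at 0 in clf-28 and 22.6% in ult1-3 clf-28, the same direction as in the pair with CLF. Peak edges lie on a grid of 200 bp. The changes with CLF of AGL42 (gene of 3962 bp) and HB-8 (gene of 5312 bp) were close to that step in size.

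The polymerase subunit gene NRPB10 stood at -112 (-83.7 and 28.3), the receptor-like kinase gene TMKL1 at -166 (-100 and 66.3), and EXT-like, an extensin-like gene, at -74.6 (-61.4 and 13.2). NRPB10, TMKL1 and EXT-like had no cover in any of the 12 single-end H3K27me3 lists.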

How the results depend on the processing

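No paired analysis was possible because each genotype has 1 list, and for the same reason no replicate could be left out. Equal covered length and the ranking by column 4 per kb were chosen after seeing the data. A cover limit of 80% gave 1485 lost genes, 575 newly marked and lost again, 7 marked auxin genes in clf-28, 4 marked root genes in ult1-3 clf-28, and 3 and 1 Polycomb and Trithorax genes in clf-28 and ult1-3 clf-28. Equal peak numbers gave 1333 lost, 462 gained, 635 newly marked and lost again, 921 clf-28 peaks with no counterpart, and a covered length of 86.6% of clf-28. Equal covered length gave 929 lost and 680 gained, and the ranking per kb 853 lost, 571 gained and 397 newly marked and lost again. Covered length was 71.2% without the lowest 25% of peaks and 71.4% without peaks under 1000 bp. Over all annotated genes 592 were gained. Counting only genes also unmarked in both single-end Col-0 lists, 637 were newly marked and lost again. Under the alternatives run, lost genes ranged from 853 to 2931 and gained genes from 257 to 680; the causes of these shifts were not tested, beyond shorter lists holding fewer marked genes. The lists hold no depth, so a missing peak cannot be told from one not detectable at that depth.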

Other observations

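These values were chosen after the data were seen. Of 3851 genes marked in Col-0, clf-28 and swn-7, 59 (1.53%) were unmarked in all 3 ult1-3 lists, the single and both double mutants, and of 20203 genes unmarked in the first 3 lists, 0 were marked in all of the last 3. The 59 genes lay under 58 clf-28 peaks, and 54 had no cover in ult1-3 clf-28. JAZ1, a repressor of jasmonate responses, was at 77.6% in Col-0, 52.9% in clf-28 and 56.4% in swn-7 and at 0 in the 3 ult1-3 lists. GSTU20, a glutathione transferase, was at 100%, 77.9% and 100%, and the homeodomain gene HAT1 at 69.9%, 69.9% and 58.2%, with 0 in the same 3 lists. With equal peak numbers, 20 of the 59 were still marked in clf-28. JAZ1, GSTU20 and HAT1 were not among these and had no clf-28 cover there. In the single-end series, 52 of the 59 were marked in both Ler lists, and 0 of them were unmarked in both ult1-2 and both ult1-3 lists.

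The 5 longest peaks of the ult1-3 clf-28 list touched no clf-28 peak. Its longest peak spans 56400 bp at chr1:14942201-14998600 (TAIR10), against 21800 bp for the longest clf-28 peak. A peak of 48800 bp at chr1:15093401-15142200 was wholly under peaks in ult1-3 and ult1-3 swn-7 as well, and 43.9% and 89.3% under peaks in single-end ult1-3 lists 1 and 3, with no cover in any other H3K27me3 list, those of ult1-2 included. Other long peaks at chr1:15013801-15053800 and chr5:11863001-11897600 were found in ult1-3 clf-28 alone. The peaks of 56400 bp and 48800 bp and the one on chromosome 5 overlapped 0 protein-coding genes, and that at chr1:15013801-15053800 overlapped 1. Peak lists do not show how reads were placed in such stretches, so these long peaks are uncertain. A peak at chr5:15665401-15694800, over GER2, was also wholly under peaks in ult1-3.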
